A study of Mus musculus with 31 samples.

Results

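Cholesterol synthesis genes were followed in mouse embryonic eyes that carry or lack Ftx, an X-linked long non-coding RNA gene next to Xist. The 8 genes were taken by name, as every non-control probe whose gene name in the array files was Hmgcs1, Idi1, Fdft1, Sqle, Lss, Dhcr7, Insig1 or Srebf2. They are measured by 11 of the 55681 different probes and are 8 of 34832 gene names on the array. For testing, a probe needed a mean signal over 500 in the WT female eyes. Each gene has 1 probe that met this minimum, so all 8 genes entered the tests, and the other 3 probes did not.

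All eyes came from embryos at E13.5, were of normal appearance, and had the pigmented epithelial layer removed. The groups were WT females (XX, both Ftx alleles intact, 3 eyes numbered 1, 2 and 4), WT males (XY, Ftx intact, 3 eyes), Ftx-/- females (both alleles deleted, 11 eyes) and Ftx-/Y males (the single X-linked allele deleted, 3 eyes). According to the methods, Ftx was deleted by gene targeting in embryonic stem cells, and the line was kept on a C57BL/6N background. The labels number the eyes without saying which share an embryo or a litter, so p-values measure the spread between these eyes. RNA was measured on 1-colour (Cy3) arrays, with 2 arrays for each Ftx-/- eye, averaged here to 1 value, and 1 array for every other eye.

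Cholesterol is built from acetyl-CoA in a long chain of enzymes. Hmgcs1 and Idi1 act in the mevalonate arm, Fdft1 joins farnesyl units into squalene, Sqle and Lss turn squalene into lanosterol, and Dhcr7 completes cholesterol at the end of the sterol arm. Srebf2 encodes SREBP-2, the transcription factor that drives these genes when sterol is low, and Insig1 encodes an endoplasmic reticulum protein that holds SREBP-2 back when sterol is high and is itself a target of SREBP-2. In the eye, the lens fibre membrane is known for its high cholesterol content.

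SREBP-2 is known to act at sterol regulatory elements together with the factor NF-Y, and stretches of the members' promoters that hold such letters are shown for orientation. RefSeq promoters (GRCm38.p6, 250 bases before to 50 bases after the start) were matched by symbol for 6 of the 8 genes. Fdft1 and Sqle had no entry. These 6 genes have 8 promoters, 3 of them of Dhcr7. The letters TCACNCCAC, searched on both strands, occur in 408 of 32851 promoters (1.24%) and in 1 of these 8, that of Hmgcs1. The NF-Y box CCAAT, searched on both strands (ATTGG on the opposite one), occurs in 37.4% of all promoters. It occurs in 6 of these 8, with at least 1 promoter of each of the 6 genes among them. The first line shows the sterol element letters and the others a CCAAT box, each in capitals in a stretch of 30 bases from before the start, on the plus strand, which is the strand of each gene.
Hmgcs1 sterol element (chr13:119690203-119690232): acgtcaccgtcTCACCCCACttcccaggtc
Hmgcs1 (chr13:119690293-119690322): gtccccgcctctcATTGGctgaaagcggat
Idi1 (chr13:8885548-8885577): ttgcctccagctgATTGGcgagcccgggca
Lss (chr10:76531530-76531559): tggtgatgctctgATTGGccgagctcgcat
Dhcr7 (chr7:143830152-143830181): aaatccacttccgATTGGtcgtctgtgacc
Insig1 (chr5:28071183-28071212): ccgccctcctcccATTGGctccggcggcct
Srebf2 (chr15:82147121-82147150): gcttcgcgcgccgATTGGctaatgcaagcc

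A match is a description of the letters and no evidence of binding in these eyes. The array probes themselves lie elsewhere, at positions that the files give in mm9. These are chr13_random:114793-114852 for Hmgcs1, chr13:8891524-8891583 for Idi1, chr15:59162688-59162747 for Sqle, chr10:76015992-76016051 for Lss, chr7:151033874-151033933 for Dhcr7, chr5:28404246-28404305 for Insig1 and chr15:82034765-82034824 for Srebf2. The Fdft1 probe spans chr14:63765750-63769990, longer than its 60 bases. Exon annotation of mm9 was not used here.

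The labels were checked on the targeted gene and on sex-linked genes. A probe of Ftx had a mean signal of 101 in WT females and 106 in WT males, against 21.7 in Ftx-/- and 16.5 in Ftx-/Y eyes. It was well above background on all 6 WT arrays, on 9 of 22 Ftx-/- arrays and on none of 3 from Ftx-/Y eyes. A second, dimmer Ftx probe was at 40.5 in WT females, 18.9 in WT males (above background on 0 of 3 arrays), 9.78 in Ftx-/- and 13.7 in Ftx-/Y eyes. Where the probes lie relative to the deletion was not examined. Each of the 7 Xist probes was well above background on all 3 WT female and all 22 Ftx-/- arrays and on no male array, and Eif2s3y, a Y-linked gene, was above background on every male array and on 1 of 22 Ftx-/- arrays. Slide and genotype are partly confounded: slide 1 holds all WT eyes and Ftx-/Y eye 1, slide 2 holds the other two Ftx-/Y eyes with 3 Ftx-/- eyes (1 to 3), slide 3 holds Ftx-/- eyes 4 to 7 and slide 4 holds eyes 8 to 11 of that group. No slide holds WT and Ftx-/- females together.

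**Figure D1:**
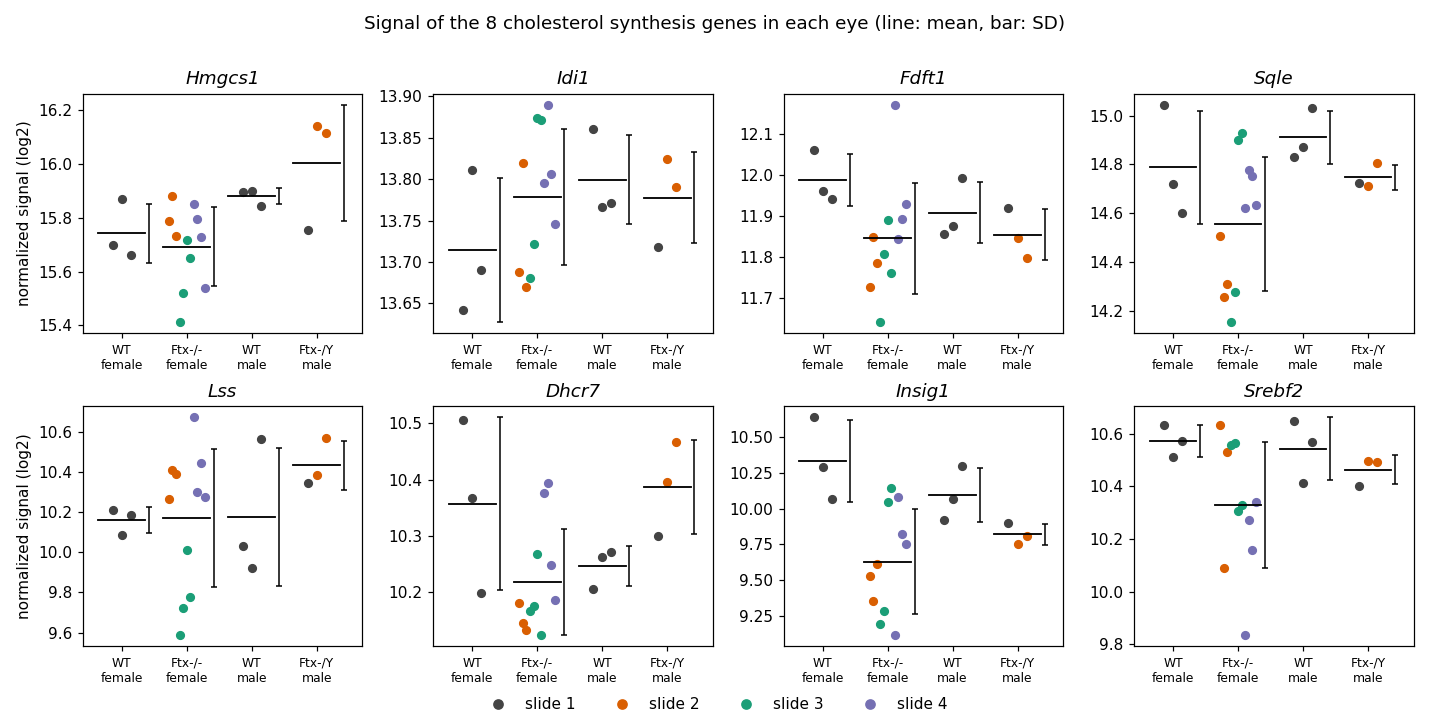
Normalized signal (log2, vertical axis, a different range in each panel) of the 8 genes in each of the 20 eyes, by group and coloured by slide, with the group mean (line) and SD (bar). Insig1 is lowest in the Ftx-/- group, where the mean is 9.63 against 10.33 in WT females, and Lss is low in the Ftx-/- eyes of slide 3.

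Of the 8 genes, Insig1 was the only one called by limma over all 20 eyes in any comparison between groups. It was lower in Ftx-/- than in WT female eyes. Signals in WT females were 1591, 1255 and 1070 in eyes 1, 2 and 4, and in the Ftx-/- eyes they ran from 555 to 1132, with a median of 782. Ftx-/- eyes 7 and 9 (1132 and 1083) reached the range of WT females, so the groups overlap, but all 11 eyes lay below the WT mean. The mean fell from 10.33 ± 0.29 (SD, n = 3) to 9.63 ± 0.37 (SD, n = 11) on the log2 scale, a difference of -0.70 (SE 0.19, 95% CI -1.10 to -0.30, fold 0.616, limma adjusted p = 0.00917 over all 14052 probes tested).

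That call stands against a background in which a large share of probes was called in the female comparison. There 16.8% of all probes tested were called higher and 18.2% lower, so 1 of 8 members called lower is close to the share of all probes, and 0 of 8 called higher is below it. The call did not survive when the slide entered the fit, where the calls over all probes fell as well. These went from 4925 to 2453 with slide as a random block and to 11 with slide as a fixed term. With slide as a random block the Insig1 difference was -0.70 (limma adjusted p = 0.0946), and with slide as a fixed term, tied to WT through the Ftx-/Y eyes on slides 1 and 2, it was -0.72 (adjusted p = 0.437). Against the same WT females, the Ftx-/- eyes of slides 2, 3 and 4 taken alone differed by -0.83, -0.66 and -0.64. Each of these sets the WT females of slide 1 against another slide, so genotype and slide cannot be told apart in them. Leaving out WT female eye 1, the eye with the highest Insig1 signal, gave -0.55 (limma adjusted p = 0.0873). The authors' own series table of the same arrays, not normalized between arrays, gave -0.42, which did not pass. In that table the median of all probes in the female comparison was 0.25, against -0.01 in the main fit.

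In males, the Insig1 difference had the same sign and did not pass the test. Signals were 969, 1074 and 1258 in WT male eyes 1 to 3 and 955, 864 and 898 in Ftx-/Y eyes 1 to 3. The groups do not overlap, but the share of all probes whose male groups separate in this way was not counted. The log2 difference was -0.27 (95% CI -0.78 to 0.23, limma adjusted p = 0.69). On slide 1 alone, Ftx-/Y eye 1 differed from WT males by -0.20. The group means ran from WT females (10.33) through WT males (10.10) and Ftx-/Y males (9.82) to Ftx-/- females (9.63), and no difference between neighbours in this order passed the test (limma adjusted p from 0.617 to 0.798). The female change minus the male change was -0.43 (95% CI -1.07 to 0.22, limma adjusted p = 0.567).

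Lists of cell type and response markers were read in the female comparison, where 16.8% of all probes tested were called higher and 18.2% lower. In males 0.0213% of all probes were called. Of 10 lens genes, all tested, 8 were called lower and 0 higher in the Ftx-/- females, among them Bfsp1 (-1.11 on the log2 scale), which encodes a lens filament protein, and Lim2 (-1.04), which encodes a lens fibre membrane protein. None of the 10 was called in males. The summed signal of the lens list was 876360 to 971640 in WT female and 743983 to 918443 in Ftx-/- eyes. The sum of 8 mesenchyme genes was 3573 to 5092 in WT female and 5560 to 45369 in Ftx-/- eyes, without overlap. In WT males this sum was 5016 to 12212 and in Ftx-/Y males 4510 to 8905, both reaching into the Ftx-/- range. How often other sums separate the female groups was not counted. The 1 mesenchyme gene tested, Col1a2, a collagen, was called higher (1.09, limma adjusted p = 0.0475). The minimum signal is set in WT females, so list genes low in that group were not tested, whatever their signal in Ftx-/- eyes. The sum of 7 pigment genes ran from 5172 to 7536 in WT female and from 3325 to 33974 in Ftx-/- eyes although the pigmented layer had been removed. In WT males the pigment sum ran from 8388 to 12865, above every WT female eye, and in Ftx-/Y males from 5069 to 7603. Of the 3 pigment genes tested 1 was called higher, Mitf (0.73, adjusted p = 0.0184). Of the other lists, erythroid genes gave 2 higher of 6 tested, retinal progenitor genes 2 higher of 8, retinal neuron genes 2 higher and 3 lower of 8, macrophage genes 1 higher of 4, and endothelial and immediate early genes none of 2 and of 1. Of 6 hypoxia response genes, all tested, 3 were called higher in females (median 0.25) and 2 in males (median 0.57). Fewer cells of a type and less RNA per cell cannot be told apart in whole eyes. Among the 20 eyes, with group means taken out, Insig1 ran with the hypoxia sum at r = -0.65, with the mesenchyme sum at -0.55, with the pigment sum at -0.30 and with the lens sum at -0.16. For Sqle, r was -0.67 with hypoxia, -0.58 with mesenchyme, -0.57 with pigment and 0.07 with lens genes, and for Srebf2 it was 0.61 with pigment and -0.62 with lens genes. The other 5 members had a positive r with the lens sum: Fdft1 0.56, Lss 0.53, Hmgcs1 0.42, Dhcr7 0.32 and Idi1 0.14. Their r with the pigment sum was -0.59, -0.24, -0.21, -0.51 and -0.49, in the same order. With the retinal progenitor sum, r was -0.67 for Srebf2 and from 0.34 (Insig1) to 0.67 (Lss) for the other members. These are descriptions of eyes that share slides, and the part of these cells or genes in the members' differences was not tested.

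**Figure D2:**
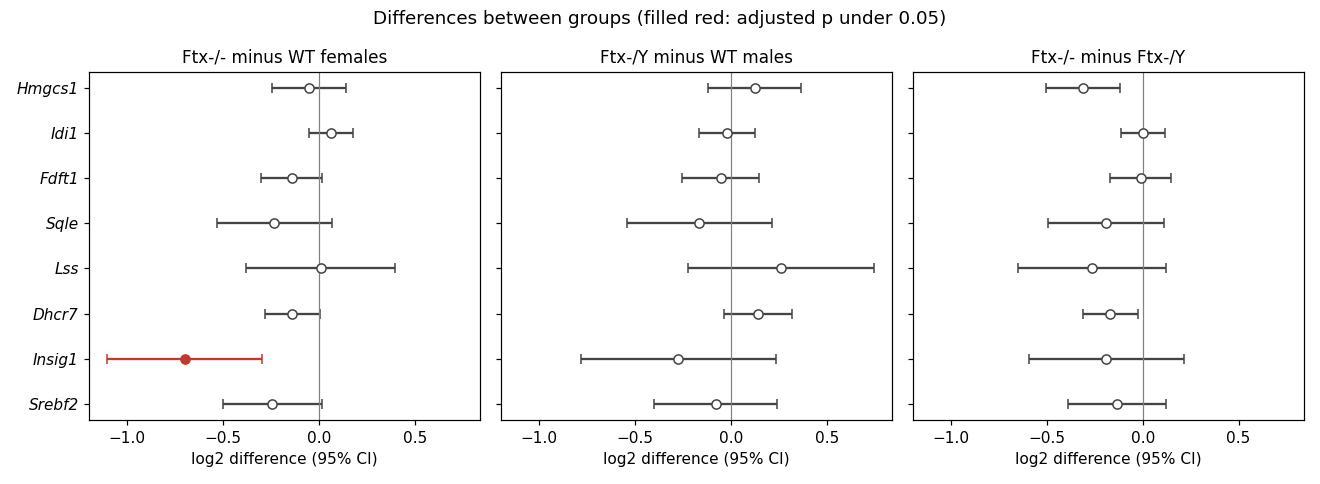
Log2 difference (horizontal axis) with its 95% confidence interval for the 8 genes in 3 comparisons, filled red where the adjusted p is under 0.05. Insig1 in females (-0.70) is the filled point, and in the comparison of Ftx-/- with Ftx-/Y the intervals of Hmgcs1 (-0.51 to -0.12) and Dhcr7 (-0.31 to -0.03) also lie below 0 without passing after adjustment.

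Srebf2, the factor itself, had a negative difference in females that missed the threshold. Signals were 1587, 1459 and 1521 in WT females and ran from 914 to 1587 in the Ftx-/- eyes, with a median of 1288. Below the lowest WT eye lay most Ftx-/- eyes, and eye 1 (1587) was level with the highest. The difference was -0.24 (95% CI -0.50 to 0.01, p = 0.0628, limma adjusted p = 0.132), and in males it was -0.08 (adjusted p = 0.876). With the Ftx-/- eyes of slide 4 alone, which include the lowest eye, it was -0.42 (limma adjusted p = 0.0133), against -0.15 and -0.13 with those of slides 2 and 3. The methods' test of 2 groups, with Benjamini-Hochberg adjustment, called Srebf2 lower in females (-0.23, adjusted p = 0.0463). A second Srebf2 probe, at a signal of 153 to 175 in both female groups, differed by -0.20 in the fit without a minimum (limma adjusted p = 0.319). In males the second probe had a positive difference, 0.44 (p = 0.0155, limma adjusted p = 0.28), against -0.08 for the first, and the female minus the male change was -0.64 (p = 0.00667, adjusted p = 0.319).

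In the mevalonate arm, neither gene was called. Hmgcs1, the enzyme that makes HMG-CoA, had signals of 53170, 59814 and 51794 in WT females and 43592 to 60381 in Ftx-/- females (median 54237), a difference of -0.05 (95% CI -0.24 to 0.14). Ftx-/Y eyes 2 and 3, on slide 2, were the highest of all eyes (72370 and 71035), whereas Ftx-/Y eye 1, on slide 1, was at 55362. Between Ftx-/- females and Ftx-/Y males, Hmgcs1 differed by -0.31 on the log2 scale (95% CI -0.51 to -0.12, p = 0.00306, limma adjusted p = 0.0916), with all 11 eyes below the Ftx-/Y mean. On slide 2 alone, which holds 3 Ftx-/- and 2 Ftx-/Y eyes, that difference was -0.33 (limma adjusted p = 0.371). In males, Hmgcs1 differed by 0.12 over all eyes and by -0.12 within slide 1.

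A dimmer Hmgcs1 probe, assigned by the array to another transcript record than the tested probe, went the other way in females. The scanner put it well above background on 1 array of 3 from WT females and on 20 of the 22 Ftx-/- arrays, with a mean signal of 21.0 ± 5.81 against 48.7 ± 11.9 (SD), a log2 difference of 1.21 in the fit without a minimum (limma adjusted p = 0.0084). A dimmer Fdft1 probe, well above background on no WT female array and on 11 of 22 Ftx-/- arrays, differed by 0.80 (adjusted p = 0.0567). In WT and Ftx-/Y males the dimmer probes were at 44.5 and 56.5 for Hmgcs1 and at 31.1 and 32.8 for Fdft1. WT females were the lowest group for both (21.0 and 16.6). Both probes read signals near the background. Idi1, the isomerase that makes the active isoprene units, had the smallest spread of the members among Ftx-/- eyes (SD 0.08 on the log2 scale). Its signals were 12784 to 14374 in WT females and 13034 to 15181 in Ftx-/- females, a log2 difference of 0.06 (95% CI -0.05 to 0.18) in females and -0.02 in males.

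At the squalene step, Fdft1 and Sqle had negative differences in females that did not pass the test. Fdft1 signals were 4271, 3987 and 3932 in WT females and 3193 to 4616 in Ftx-/- eyes, with a median of 3676. Of the 11 Ftx-/- eyes, 10 lay below the WT mean, and eye 8 (4616) was above every WT eye. The difference was -0.14 (p = 0.0767, limma adjusted p = 0.154), and without Ftx-/- eye 8 it was -0.17 (adjusted p = 0.0236). Sqle, the epoxidase of squalene, had 33821, 26971 and 24804 in WT females against 18200 to 31216 in Ftx-/- eyes (median 25184), a difference of -0.23 (95% CI -0.53 to 0.07, limma adjusted p = 0.223). The low Sqle eyes were Ftx-/- eyes 1 to 5, from 18200 to 23269, and eyes 6 and 7 (30544 and 31216) were the highest of their group. In males, Sqle signals were 29099, 29937 and 33533 in WT and 27024, 26838 and 28611 in Ftx-/Y eyes. These groups do not overlap, and the share of all probes that separate in this way was not counted. The male difference of -0.16 had a 95% CI of -0.54 to 0.21 (limma adjusted p = 0.761).

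Lss, the cyclase that makes lanosterol, differed by 0.01 in females (95% CI -0.38 to 0.40), and its values split by slide. Mean log2 signals of the Ftx-/- eyes were 10.36 on slide 2 (3 eyes), 9.78 on slide 3 (4 eyes) and 10.43 on slide 4 (4 eyes), against 10.16 in WT females. The 4 eyes of slide 3 taken alone were lower than WT females by a log2 difference of -0.39 (limma adjusted p = 0.0351). The eyes of slides 2 and 4 were not (0.20 and 0.26). Across the 11 Ftx-/- eyes, Lss ran against the median raw signal of the eye's arrays at r = -0.84. By the same measure r was -0.68 for Hmgcs1 and from -0.34 (Fdft1) to 0.34 (Srebf2) for the other members. The part of array brightness in the values of Lss, Hmgcs1 or the other members was not tested.

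Dhcr7, the last reductase of the chain, had differences of opposite sign in the sexes, neither of which passed the test. Signals were 1453, 1321 and 1176 in WT females, 1116 to 1345 in Ftx-/- females (median 1161), 1181, 1229 and 1236 in WT males, and 1261, 1347 and 1415 in Ftx-/Y males. The male groups do not overlap, with Ftx-/Y the higher, and the share of all probes that separate in this way was not counted. The differences were -0.14 in females (95% CI -0.28 to 0.003, limma adjusted p = 0.12) and 0.14 in males (95% CI -0.04 to 0.32, adjusted p = 0.538). Female change minus male change came to -0.28 (p = 0.019, limma adjusted p = 0.272), which fails the correction. After correction of each array for probe GC content, the female difference was -0.25 and passed (limma adjusted p = 0.0148).

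Over the members as a group, the median log2 difference was -0.14 in the female comparison, against -0.01 over all probes tested, with 6 members below 0 and 2 above. In males it was -0.04 against -0.0014 over all probes. No member was called in males with limma, in the background of 0.0213% of probes, and no member had an unadjusted p under 0.05, against 11.8% of all probes. Between the WT sexes, 0.0712% of probes were called, 0 members were called by limma and 0 had an unadjusted p under 0.05, against 10.2% of all probes. Between Ftx-/- and Ftx-/Y eyes, 1.96% of probes and 0 members were called by limma, 2 members (Hmgcs1 and Dhcr7) had an unadjusted p under 0.05, as did 16.7% of all probes, and the median of the members was -0.18. For the sex difference of the Ftx change, limma called 0% of probes, and 1 member, Dhcr7, had an unadjusted p under 0.05, as did 13.8% of all probes.

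**Figure D3:**
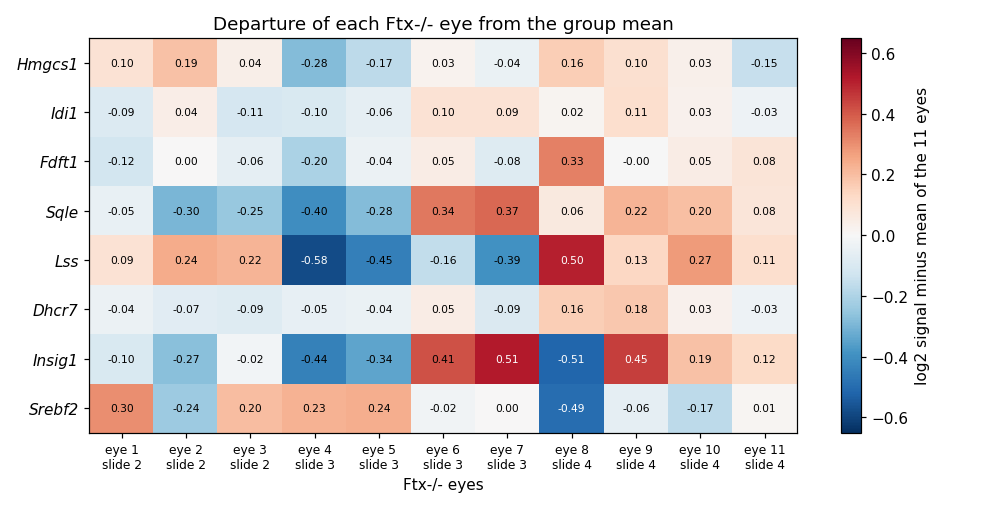
Log2 signal of each gene in each Ftx-/- eye minus the mean of the 11 eyes (colour and printed value), with the slide of each eye. Eye 8 has the lowest Insig1 (-0.51) and Srebf2 (-0.49) and the highest Lss (0.50) and Fdft1 (0.33), and eyes 6, 7 and 9 are high in Insig1 and Sqle.

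The members did not move as 1 block from eye to eye. With group means taken out, correlations over the 20 eyes were above 0 for 22 of the 28 pairs, with a median r of 0.23. Insig1 and Sqle ran together most closely (r = 0.83), followed by Fdft1 and Lss (0.65). With slide means also taken out these were 0.86 and 0.74, and Hmgcs1 and Idi1 came between them (0.81, against 0.52 before). Srebf2 ran against most of the enzymes, from r = -0.29 with Sqle to -0.75 with Fdft1, and was near 0 with Insig1 (0.04). With slide means also taken out, Srebf2 ran from -0.13 with Sqle to -0.68 with Hmgcs1. The eyes share slides and, in part, a single extreme eye: Ftx-/- eye 8 is the far point of the Fdft1 and Srebf2 pair and the one eye away from the line of Insig1 and Sqle. Differences between eyes were larger than those between arrays of an eye: among Ftx-/- eyes the SD between eyes was 0.37 for Insig1 and 0.27 for Sqle, and the SD between the 2 arrays of an eye was 0.10 and 0.07.

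**Figure D4:**
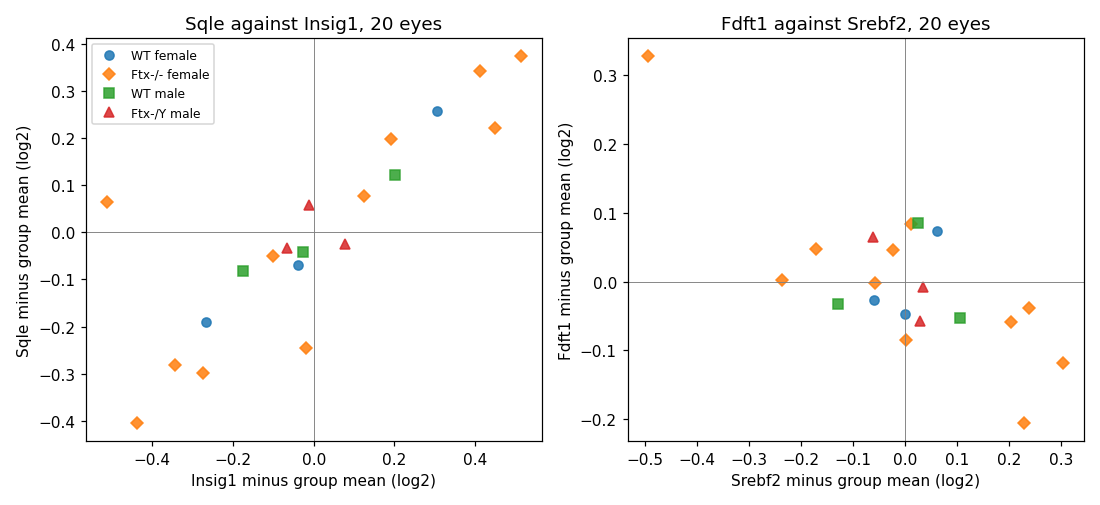
Log2 signal minus the group mean in each of 20 eyes, for Sqle against Insig1 (left, r = 0.83) and Fdft1 against Srebf2 (right, r = -0.75), with 1 symbol per group. The Ftx-/- eye at the far left of both panels is eye 8.

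Among the genes whose pattern was most like the mean of the 8 members, by the same measure over 20 eyes and among 9489 genes compared, were Depdc1b (r = 0.89), Ier5 (0.86), Gm5465 (0.85) and C230096C10Rik (0.85). The median r of all those genes was 0.05 and the 99th percentile was 0.72. Of the members, Sqle ran with the mean of the 8 at 0.86 and Insig1 at 0.75, and Srebf2 at -0.30. Each member is itself part of that mean, which raises its r, so these values cannot be set beside those of the other genes.

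The other genes of the pathway were read from lists of 37 genes, of which 28 were tested. In the female comparison 6 were called, 2 higher and 4 lower, with a median log2 difference of -0.05 over the 28. Both counts are below the share of all probes called in that comparison (16.8% higher and 18.2% lower), so the genes named next are values of single genes and no result about the pathway. None was called by limma in the male comparison, where Npc2 and Abcg1 had an unadjusted p under 0.05. In the mevalonate arm, Mvd, the decarboxylase of mevalonate diphosphate, fell from a mean signal of 2202 to 1556 (log2 difference -0.51, SE 0.10, limma adjusted p = 0.0011), and Fdps, which makes farnesyl diphosphate, fell by less (-0.18, adjusted p = 0.016). All 11 Ftx-/- eyes were below the WT mean for both genes. In the sterol arm, Tm7sf2, a sterol reductase, differed by -0.14 (limma adjusted p = 0.0337). Cyp51, the demethylase of lanosterol, went the other way, from 1330 to 1945 (0.55, SE 0.13, limma adjusted p = 0.00372), higher in 11 of 11 eyes.

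Among transport genes, Npc2, which carries cholesterol out of the lysosome, rose from 6232 to 7706 (0.30, limma adjusted p = 0.00815), and Abcg1, a cholesterol exporter, fell from 1924 to 1390 (-0.47, adjusted p = 0.00586). In males Npc2 differed by 0.34 (adjusted p = 0.251) and Abcg1 by -0.33 (adjusted p = 0.405). None of the 4 tested genes that control SREBP and none of the 5 tested fatty acid synthesis genes was called in either sex. The X-linked Nsdhl and Ebp, both enzymes of the sterol arm, differed by -0.20 (adjusted p = 0.0521) and -0.17 (adjusted p = 0.0936) in females, and the X-linked Mbtps2, a protease that releases SREBP, was below the minimum at 214 in WT and 234 in Ftx-/- females.

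The calls of the pathway genes rest on the same slides. With slide as a random block, 2 genes were called higher and 3 lower (Tm7sf2 was lost), and with slide as a fixed term none was called. Against WT females, Mvd was lower in the Ftx-/- eyes of each of slides 2, 3 and 4, by -0.50, -0.68 and -0.34, with limma adjusted p values of 0.0163 or less. All 3 differences use the same WT female eyes, which are all on slide 1. They therefore cannot tell genotype from slide and are not independent of each other. After correction of each array for probe GC content, 3 pathway genes were called higher (Cyp51, Apoe and Scap) and 1 lower (Abcg1), and Mvd (-0.18, limma adjusted p = 0.176), Fdps, Tm7sf2 and Npc2 were lost. Without WT female eye 1, Cyp51 was higher and Fdps and Mvd were lower, and Abcg1, Npc2 and Tm7sf2 were lost.

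**Figure D5:**
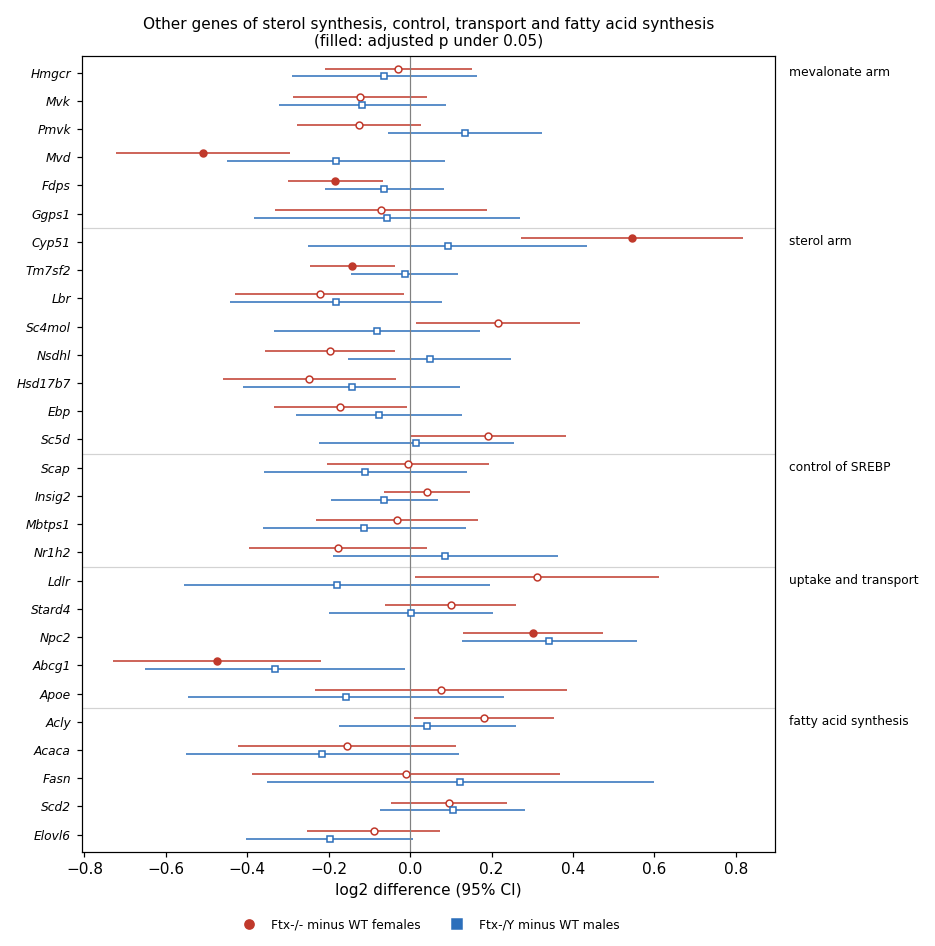
Log2 difference (horizontal axis, 95% confidence interval) of the 28 tested pathway genes in females (red circles) and males (blue squares), grouped by list, filled where the adjusted p is under 0.05. The 6 filled points are all in females, 4 to the left of 0 and 2, Cyp51 and Npc2, to the right.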

How the data were processed

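RNA from E13.5 eyes (3 WT female, 3 WT male, 3 Ftx-/Y, 11 Ftx-/-) was measured on 31 1-colour Agilent arrays (60-base probes). The authors deposited scanner files with the intensity of each spot after background subtraction by Feature Extraction (11.0.1.1 per the file headers). They also deposited a series table of the same intensities, not normalized between arrays, used here, as log2, for an alternative. The intensity files of 2 arrays had been re-saved with 3 significant digits.

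Intensities were normalized by quantile splines, as the methods state, written out in R 4.3.3. Flagged spots were left out (5751), log2 values were averaged over a probe's spots and over the arrays of each Ftx-/- eye, and the 14052 probes whose mean signal in the WT female eyes exceeded 500 were tested. Groups were compared by limma 3.58.1 with a trend, over all 20 eyes, with Benjamini-Hochberg adjustment over all probes tested, and a probe was called at an adjusted p under 0.05. A gene is read by its probe with the highest mean log2 signal over the WT eyes. The fit was tested on simulated data.

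The members, lists and tests were chosen with earlier results of these data known. All 8 members are named, with called pathway genes (at most 5 rises and 5 falls per sex), the X-linked ones, and those most like the members (the 5 of highest correlation), and 1 gene of the pathway lists and 1 of those 5 are not reported here. Alternatives were other normalizations and filters, single arrays, slide, scan or replicate number in the fit, eyes left out, single slides, the methods' t-test and a GC trend. The number of eyes and arrays limits the precision.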

Additional observations from a re-analysis of the deposited data

How the results depend on the processing

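Among the 36 alternatives run for it, the call of Insig1 in females was lost with the series table (-0.42), with slide as a fixed term (-0.72) or random block (-0.70), with scan as a fixed term (-0.58, chosen after seeing the data) and with the methods' t-test (-0.68, under its own limits and adjusted). It was also lost without WT female eye 1. Leaving out 1 eye gave -0.83 to -0.55. The number of members called in females was 0 with the series table, slide as a fixed term or random block, scan, and the t-test at the study's limits, and 1, Srebf2, with that test adjusted. It was 2 with the GC trend taken out (Insig1 and Dhcr7) or with slide 4 alone, 3 with slide 2 or slide 3 alone, and 0 to 2 with 1 eye left out (2 without Ftx-/- eye 8 or WT female eye 4). With slide 3 alone, 2 members were called between Ftx-/- and Ftx-/Y eyes and 1 for the sex difference.

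Correlations of same-numbered eyes ran from -0.22 to 0.14. Eyes of different number were not compared, so whether the replicate numbers pair the eyes was not tested. A replicate block called 3 members in females (Insig1, Sqle and Fdft1) and gave a median member difference of -0.27 for the sex difference of the change. The members' median in females was 0.14 with the series table, -0.28 with slide as a fixed term, -0.27 with scan and -0.042 with slide 4 alone. With the series table it was -0.17 between WT sexes, 0.013 between Ftx-/- and Ftx-/Y, and 0.20 for the sex difference, and with slide 4 alone it was -0.068 and -0.067 for the last of these. Left-out eyes gave medians of -0.19 to -0.09 in females. In that table the median of all probes in the female comparison shifts by 0.25, and it reversed Fdps (0.088) and Tm7sf2 (0.14). Slide 3 alone reversed Lss (-0.39).

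In females 2365 probes were called higher and 2560 lower. With the minimum set on the mean of the 4 groups, 2532 were called higher and 2413 lower. The series table gave 2568 and 176, no filter 4326 and 4483, slide as a random block 1097 and 1356, the GC trend taken out 1797 and 1414, the replicate block 1422 and 1811, leaving out WT female eye 1 1555 and 1593, the study's limits with the t-test 1820 and 1462, slide as a fixed term 1 and 10, and scan 2 and 11. In males, between the WT sexes and between Ftx-/- and Ftx-/Y eyes, the methods' t-test called 0 members, as limma did. The causes were not tested. The array number and probe brightness limit what can be read.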
